A study of Mus musculus with 10 samples.

Results

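The baseline transcriptomes of splenic T cells and of type 2 conventional dendritic cells (cDC2s) were compared in Cd47f/f mice, the control genotype of a study of CD47 in T cell survival. Of the 10 libraries of the series, the 5 made from Cd47f/f mice were used, 2 of T cells and 3 of cDC2s. Both cell types carry floxed Cd47 alleles with no deletion by the genotype's name, and the other 5 libraries came from Cd47ΔT mice, in which by the name Cd47 is deleted in T cells. The kits differed by cell type. T cells went through the RNeasy mini and TruSeq stranded mRNA kits, and cDC2s through the RNeasy micro and SMART-seq stranded kits. Cell type and library kit therefore cannot be told apart in any value given here. The sources used here do not say how the cells were isolated, how old the mice were or whether replicates came from separate mice. If they did not, the spread that enters each p-value is only technical. Of the 45706 genes in the table, the 21506 protein-coding nuclear genes were used, with their TPM, which are scaled by transcript length and library total, rescaled to a sum of 1000000 per library. Of these, 11164 reached 1 in both T cell libraries or in all 3 cDC2 libraries and were tested. All levels below are rescaled TPM, which are per transcript length, and each log2 difference is T cells over cDC2s on the log2(level + 1) scale with its SE, so a positive value is higher in T cells. This scale understates the differences of low genes. Where a level is given per library, the libraries stand in the order of their numbers, and where 1 level per cell type is given it is the mean of 2 T cell or 3 cDC2 libraries, with T cells first. A gene was called where the Benjamini-Hochberg adjusted p of limma was under 0.05.

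T cells recognise peptides on MHC molecules through the T cell receptor, which signals through the CD3 chains, the kinase Lck and the kinase Zap70. Most T cells of an unimmunised spleen are naive cells that recirculate between blood and lymphoid organs and depend on IL-7 and on contact with self MHC. cDC2s are antigen-presenting cells that develop under the growth factor receptor Flt3 and factors such as PU.1 and Irf4, take up antigen, load it on MHC class II and present it mainly to CD4 T cells. In the spleen they carry SIRP alpha, the receptor for CD47, a surface protein present on nearly all cells that restrains phagocytosis.

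The libraries of the 2 cell types differed in composition before any gene was compared. Protein-coding nuclear genes took 84.03% and 84.6% of the deposited TPM in T cells and 67.3% to 73.97% in cDC2s, and small non-coding RNAs took 0.124% and 0.1602% against 16.1% to 21.3%. Within the rescaled total, ribosomal protein genes took 38.8% and 32.5% in T cells and 16.5% to 17.6% in cDC2s. Replication-dependent histone genes, whose mRNAs lack a poly(A) tail, took 0.0117% and 0.0103% in T cells and 3.52% to 4.64% in cDC2s. Across the tested genes, log2 values correlated at r = 0.990 between the T cell libraries, at 0.970 to 0.977 between the cDC2 libraries and at 0.599 to 0.608 between cell types, which describes genes and not independent replicates. TPM keep no record of sequencing depth, so no counting interval is given for any value.

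Most genes differed between the cell types by more than the spread between libraries. In T cells 2735 of the 11164 tested genes (24.5%) were called higher, and in cDC2s 3891 (34.9%), so that 59.4% were called in either direction. At least 4-fold differences on the log2 scale with 1 added were called for 638 genes higher in T cells (5.71%) and 1393 higher in cDC2s (12.5%). The libraries of the 2 groups did not overlap for 8213 genes (73.6%). Without T cell library 2 the number called higher in T cells was 1610, and without T cell library 1 the number called higher in cDC2s was 2576. The balance between the directions moved with the scaling. The median difference over all tested genes was -0.13 as rescaled here, 0.12 with the deposited TPM, 0.20 with quantile scaling, 0.092 with median-of-ratios scaling and 0.16 when ribosomal protein and histone genes were left out of the total. Genes higher in T cells made up 41.3% of the calls as rescaled here and 53.0%, 56.4%, 51.2% and 54.4% under those 4 other scalings. Differences well under 1 on the log2 scale are therefore to be read against this shift, whereas most of the genes described below differed by far more. The transcript length also went with the difference: the median was 0.11 in the quartile of genes with the shortest transcripts, 0.022 and -0.16 in the next quartiles and -0.49 in the quartile with the longest.

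**Figure D1:**
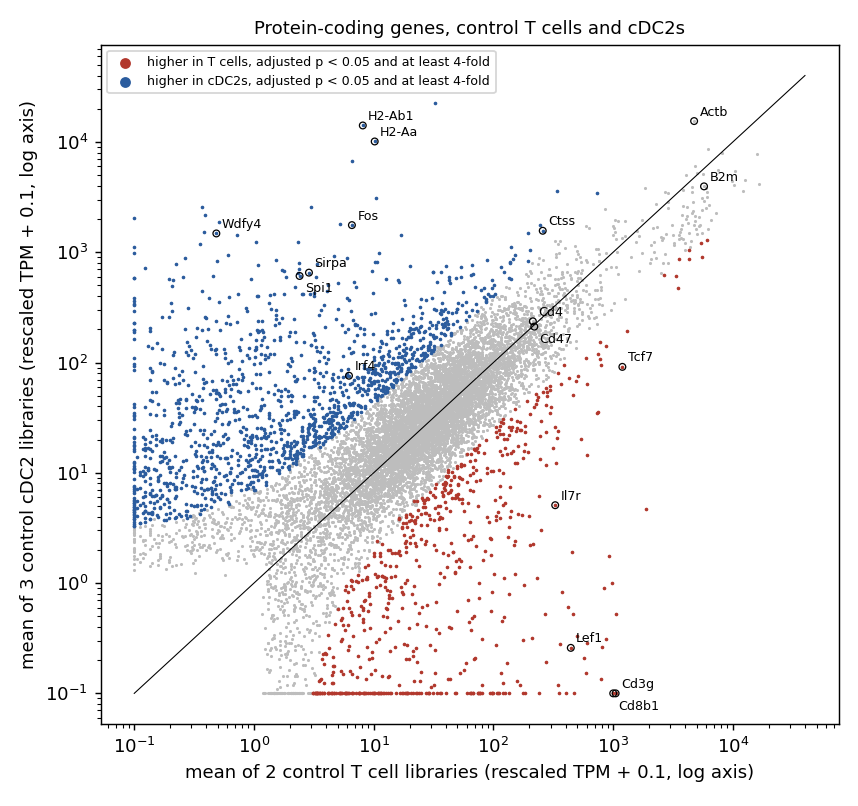
Mean level of each tested protein-coding gene in control T cells (horizontal, 2 libraries) and control cDC2s (vertical, 3 libraries), in rescaled TPM plus 0.1 on log axes. Red and blue points are genes called at least 4-fold higher in T cells (638) or cDC2s (1393), grey points are all other tested genes, ringed genes are named, the line marks equal levels and points along an edge at 0.1 are at 0 in every library of 1 cell type.

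**Figure D2:**
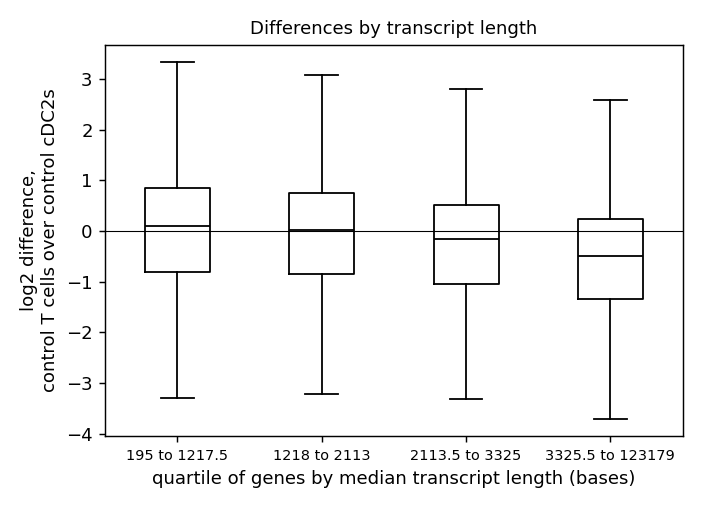
Log2 difference between control T cells and control cDC2s in each quartile of the tested genes by median transcript length. Boxes show the median and quartiles and whiskers reach 1.5 times the box height, and the median goes from 0.11 in the shortest quartile to -0.49 in the longest.

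The T cell receptor signalling genes were among the genes with the widest separation. Cd3g, a CD3 chain of the receptor complex, stood at 1064 and 1034 in the T cell libraries and was listed at 0 in all 3 cDC2 libraries. The 3 CD3 genes lie side by side on chromosome 9 (GRCm38), Cd3g at 44969572 to 44980431, Cd3d at 44981786 to 44987339 and Cd3e at 44998740 to 45009627. Cd3d read 628 and 559.7 in T cells and 0.158, 0 and 0 in cDC2s, and Cd3e read 493 and 500.4 in T cells and 0, 0.684 and 0 in cDC2s (log2 difference 8.71 ± 0.30, limma adjusted p = 1.22e-07). Cd247, the zeta chain, read 450.1 and 455 in T cells and 0.129, 0.5798 and 4.69 in cDC2s (log2 difference 7.71 ± 0.60, limma adjusted p = 1.32e-05). The Src family kinase Lck, which starts the signal, read 865 and 869 in T cells and 0.1005, 0.535 and 0 in cDC2s (log2 difference 9.51 ± 0.26, limma adjusted p = 4.47e-08), and the adaptor Lat differed by 9.04 ± 0.24. None of these ranges overlapped between the cell types.

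Of the list of receptor chains and proximal signalling genes, 22 of 26 tested members were called higher in T cells and 3 higher in cDC2s, and the median log2 difference was 5.95 over the members that were not at 0 throughout 1 cell type (7 were), and 6.62 with them, against -0.13 over all genes tested. Skap1, Themis, Ubash3a, Sh2d2a, Trat1 and Sit1, which encode adaptors and regulators of the receptor, were listed at 0 in every cDC2 library, with T cell means from 65.4 for Ubash3a to 407 for Skap1. Members higher in cDC2s included the adaptor Lcp2 (151 against 277 as T cell and cDC2 means, log2 difference -0.88 ± 0.14) and the exchange factor Vav1 (115 against 168, -0.54 ± 0.14), both of which also serve other receptors of blood cells. The phosphatase Ptpn22 read 175 in T cells and 178 in cDC2s and was not called (adjusted p = 0.884). The Src kinase Fyn was present in both, 224 in T cells and 108 in cDC2s (log2 difference 1.05 ± 0.21, limma adjusted p = 0.00269). Vav1 was no longer called with the deposited TPM, with quantile scaling, with a total without ribosomal protein and histone genes or without T cell library 1 (limma adjusted p = 0.0728 to 0.155). Ptpn22 was called higher in T cells with quantile scaling (log2 difference 0.33, limma adjusted p = 0.0257). Fyn was no longer called without T cell library 1 or 2 (limma adjusted p = 0.0516 to 0.0931).

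The T cell libraries held both CD4 and CD8 coreceptor transcripts, and the 2 coreceptors compared differently with cDC2s. Cd8b1 stood at 965 and 1037 in the T cell libraries and was listed at 0 in every cDC2 library, and Cd8a read 394 and 449.5 in T cells and 0.0574, 0.0595 and 1.39 in cDC2s (log2 difference 8.25 ± 0.38, limma adjusted p = 6.60e-07). Cd4 read 202 and 224 in T cells and 216, 239.8 and 253 in cDC2s, so the ranges overlapped, and it was not called (log2 difference -0.14 ± 0.13, limma adjusted p = 0.372). In the mouse, splenic cDC2s are known to include cells that carry CD4. In bulk libraries of this kind fewer cells of a type and less RNA per cell cannot be told apart. Of the coreceptors and costimulatory receptors, 18 of 22 tested members were called higher in T cells and 2 higher in cDC2s, and the median log2 difference was 2.33 over the members that were not at 0 throughout 1 cell type (4 were), and 3.62 with them. Cd28, the main costimulatory receptor of naive T cells, read 103 and 137 in T cells and 0, 0.0743 and 0 in cDC2s (log2 difference 6.87 ± 0.25, limma adjusted p = 1.69e-07). Cd2 (9.03 ± 0.27), Cd27 (8.27 ± 0.25) and the adhesion receptor Cd96 (7.26 ± 0.23) were separated as widely. Cd40lg, Tigit and Pdcd1 were listed at 0 in all cDC2 libraries and had T cell means of 47.3, 15.1 and 8.43. Havcr2, which encodes TIM-3, went the other way and read 0.333 and 0.9099 in T cells and 213, 231 and 255 in cDC2s (log2 difference -7.19 ± 0.22, limma adjusted p = 7.83e-08). Lag3, a receptor for MHC class II, was also higher in cDC2s (5.46 against 18.4, -1.54 ± 0.29). Lag3 was no longer called without T cell library 1 or 2 (limma adjusted p = 0.0576 to 0.0676).

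The T lineage transcription factors divided. Tcf7, which encodes TCF-1 and is required for T cell development and for naive and memory cells, read 1159.8 and 1228 in T cells and 93.3, 101 and 79.1 in cDC2s (log2 difference 3.7 ± 0.14, limma adjusted p = 2.23e-07), so cDC2s held a clear level of it. Lef1, its close relative, read 422 and 463 in T cells and 0, 0.476 and 0 in cDC2s (log2 difference 8.6 ± 0.27, limma adjusted p = 8.18e-08). Bcl11b, which commits precursors to the T lineage, stood at 75.3 and 119 in T cells and was listed at 0 in cDC2s, as were Tox (26.2 and 31.7 in T cells) and the regulatory T cell factor Foxp3 (9.12 and 10.5). Ets1 (5.31 ± 0.20) and Gata3 (4.61 ± 0.23) were higher in T cells. Runx3 (49.1 against 236, -2.27 ± 0.19), Runx1 (-1.32 ± 0.19), Nfatc2 (-1.98 ± 0.18), Foxp1 (-0.76 ± 0.23) and Nfatc1 (-0.68 ± 0.18) were higher in cDC2s. In all 14 of 25 tested members were called higher in T cells and 5 higher in cDC2s. With the deposited TPM, quantile scaling or a total without ribosomal protein and histone genes, the number higher in cDC2s was 3. Zbtb7b, the factor of the CD4 lineage, read 64.03 in T cells and 63.4 in cDC2s (adjusted p = 0.924), and Tbx21 19.9 in T cells and 30.2 in cDC2s (adjusted p = 0.0615). Foxp1 was no longer called with no filter, with the deposited TPM, with quantile scaling, with a total without ribosomal protein and histone genes, without T cell library 1 or without cDC2 library 1 (limma adjusted p = 0.0545 to 0.214). Nfatc1 was no longer called with the deposited TPM, with quantile scaling, with a total without ribosomal protein and histone genes or with the length trend removed (limma adjusted p = 0.0508 to 0.186). Tbx21 was called higher in cDC2s in 1 fit of all 10 libraries or without cDC2 library 3 (limma adjusted p = 0.0288 to 0.0431).

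The naive and recirculation list was on the T cell side with few exceptions: 15 of 17 tested members were called higher in T cells and 1 higher in cDC2s, and the median log2 difference was 3.7 over the members that were not at 0 throughout 1 cell type (2 were), and 5.61 with them. S1pr1, the receptor that guides exit from lymphoid organs, read 364 and 326 in T cells and 0.0574, 0 and 0 in cDC2s (log2 difference 8.41 ± 0.23, limma adjusted p = 4.63e-08). Il7r, the IL-7 receptor chain, read 302 and 354 in T cells and 4.61, 6.23 and 4.11 in cDC2s (log2 difference 5.79 ± 0.22, limma adjusted p = 2.37e-07). Ccr7, the receptor for the chemokines of the T cell zone, was higher in T cells and still present in cDC2s, at 517 and 471 in T cells and 63.6, 60.3 and 81.5 in cDC2s (log2 difference 2.84 ± 0.16, limma adjusted p = 2.39e-06). Dapl1 and Ly6c1 were listed at 0 in the cDC2 libraries and stood at 387 and 314 and at 123 and 98.5 in the T cell libraries. The alpha 4 integrin gene Itga4 was the member higher in cDC2s, at 72.5 and 121 in T cells and 574, 579 and 510.5 in cDC2s (log2 difference -2.55 ± 0.21, limma adjusted p = 1.71e-05). Klf2, a factor that drives S1pr1, read 460.3 in T cells and 367 in cDC2s and was not called (adjusted p = 0.267). Klf2 was called higher in T cells without cDC2 library 3 (limma adjusted p = 0.00194).

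All 8 GIMAP genes, GTPases linked to lymphocyte survival that lie together on chromosome 6, were called higher in T cells. Gimap4 read 937 and 1014 in T cells and 0, 0 and 2.69 in cDC2s (log2 difference 9.3 ± 0.54, limma adjusted p = 2.38e-06). Gimap3 read 756 and 844 in T cells and 0, 0.491 and 0 in cDC2s, and Gimap6 read 944 and 889 in T cells and 3.29, 1.34 and 0.392 in cDC2s. Gimap1 and Gimap7 were listed at 0 in every cDC2 library. Because these genes are close relatives, reads they share could be split between them by the counting. Among cytokine receptors the directions were mixed, with 10 of 22 tested members (45.5%) called higher in T cells and 7 (31.8%) higher in cDC2s. The shares over all tested genes were 24.5% and 34.9%, so the cDC2 share of the list was near that of all genes. Il2rb, shared by the IL-2 and IL-15 receptors, stood at 138 and 218 in T cells and was listed at 0 in cDC2s, while the common gamma chain Il2rg was present in both, 704 in T cells and 379.7 in cDC2s (log2 difference 0.89 ± 0.12, limma adjusted p = 3.97e-04). Il27ra was higher in T cells (5.12 ± 0.27). The receptors for IL-10 and interferon gamma were higher in cDC2s, Il10ra at 24.9 against 379 (-3.89 ± 0.17) and Ifngr1 at 201 against 673 (-1.74 ± 0.13). Il12rb2 read 1.42 and 2.21 in T cells and 58.3, 54.6 and 51.1 in cDC2s (log2 difference -4.32 ± 0.23, limma adjusted p = 1.66e-06), and its partner chain Il12rb1 stood at 6.498 and 10.01 in T cells and at 0 in cDC2s.

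Cytotoxic and effector genes were present in the T cell libraries at levels that varied widely. Nkg7, a granule protein, stood at 441 and 497, Ctsw at 173 and 198, Prf1, which encodes perforin, at 42.8 and 53.9 and Gzmb at 7.13 and 11.3, and all 4 were listed at 0 in every cDC2 library. Ly6c2, carried by memory CD8 T cells and by monocytes, read 709 and 872 in T cells and 0, 0 and 0.108 in cDC2s. In the whole list 15 of 20 tested members were called higher in T cells and 3 higher in cDC2s. Without T cell library 1, or without T cell library 2, the number higher in cDC2s was 1. The members called higher in cDC2s were the chemokine Ccl5, at 405 and 419 in T cells and 668, 703 and 969.9 in cDC2s (log2 difference -0.90 ± 0.17, limma adjusted p = 0.00202), the surface protein Cd7 (183 against 446, -1.28 ± 0.12) and Tnf (19.1 against 44.2, -1.14 ± 0.24). Xcl1, the chemokine for cDC1s, stood at 35.1 and 45.1 in T cells and was listed at 0 in cDC2s. Markers that NK cells share with cytotoxic T cells were found in the same libraries: the 7 NK cell markers summed to 97.2 and 136 in T cells and to 0 to 1.91 in cDC2s, with the NK receptor gene Ncr1 at 0.464 and 1.77 in T cells. Their part in these levels was not tested. Ccl5 and Tnf were no longer called without T cell library 1 or 2 (limma adjusted p = 0.0691 to 0.0842).

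**Figure D3:**
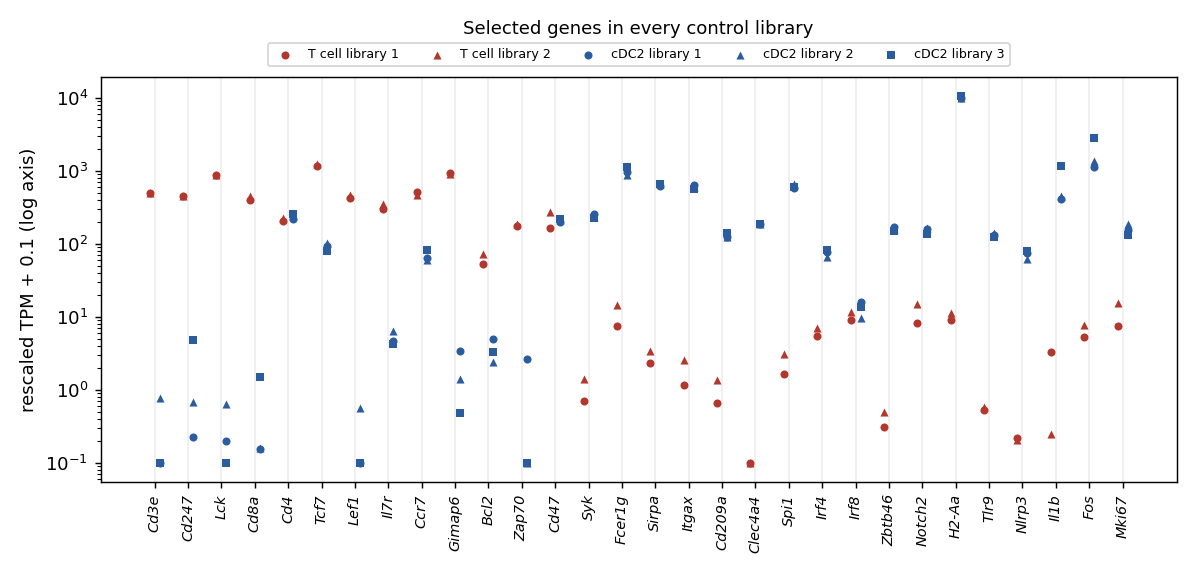
Level of 30 genes in each of the 5 control libraries, as rescaled TPM plus 0.1 on a log axis. Red marks are the 2 T cell libraries and blue marks the 3 cDC2 libraries, with the marker shape giving the library number, and Cd47 and Cd4 lie at like levels in both cell types.

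Cd74, H2-Ab1, H2-Aa and H2-Eb1, genes of the MHC class II pathway, had the highest cDC2 levels of all genes called at least 4-fold higher there. H2-Ab1, the beta chain of I-A (chromosome 17, 34257689 to 34269419, plus strand, GRCm38), read 13545, 13147 and 15605 in cDC2s and 7.18 and 8.84 in T cells (log2 difference -10.61 ± 0.13, limma adjusted p = 3.17e-09). H2-Aa, its alpha chain, read 9801, 9794 and 10689.8 in cDC2s and 8.94 and 11.3 in T cells (log2 difference -9.84 ± 0.13, limma adjusted p = 3.17e-09). H2-Eb1 read 6402, 6474 and 7362 in cDC2s and 6.03 and 6.85 in T cells. Cd74, the invariant chain that guides class II through the cell, was the most abundant protein-coding gene of cDC2s outside the ribosomal protein and histone genes, at 21897, 21135 and 24978 in cDC2s and 26.5 and 38.5 in T cells (log2 difference -9.42 ± 0.16, limma adjusted p = 9.04e-09). Ciita, the class II transactivator, read 400.1, 369.9 and 371 in cDC2s and 0.226 and 0.414 in T cells (log2 difference -8.18 ± 0.17, limma adjusted p = 1.91e-08). The class II promoters carry a Y box, an inverted CCAAT box bound by NF-Y that works together with Ciita. The letters CTGATTGG, on either strand, were found in the 300-base promoter of H2-Aa, H2-Eb1, H2-Oa and H2-Eb2, 4 of the 14 promoters matched for 12 of the 17 measured list members, against 4.10% of all 32851 promoters in the table and 5.89% of those of tested genes. The letters overlap those of any CCAAT search, and a match describes the window only. H2-Ab1 was not in the promoter table. The 250 bases before the start of H2-Aa (chr17:34287824-34288073, minus strand), H2-Eb1 (chr17:34305617-34305866, plus strand) and H2-Eb2 (chr17:34325425-34325674, plus strand) are shown because, of the 4, theirs are the windows whose last bases were found in a GENCODE transcript of the gene. They are RefSeq sequences of GRCm38.p6, 5′ to 3′ on the gene's strand, with the Y box in capitals:
H2-Aa: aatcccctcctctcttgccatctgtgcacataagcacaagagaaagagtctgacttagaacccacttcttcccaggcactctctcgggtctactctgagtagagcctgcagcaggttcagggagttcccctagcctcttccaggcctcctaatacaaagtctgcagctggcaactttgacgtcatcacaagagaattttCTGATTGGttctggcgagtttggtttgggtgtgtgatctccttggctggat
H2-Eb1: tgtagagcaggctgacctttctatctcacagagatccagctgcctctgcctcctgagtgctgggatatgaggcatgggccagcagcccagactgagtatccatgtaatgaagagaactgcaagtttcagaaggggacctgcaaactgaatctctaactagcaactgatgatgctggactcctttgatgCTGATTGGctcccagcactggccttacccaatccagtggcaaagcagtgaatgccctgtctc
H2-Eb2: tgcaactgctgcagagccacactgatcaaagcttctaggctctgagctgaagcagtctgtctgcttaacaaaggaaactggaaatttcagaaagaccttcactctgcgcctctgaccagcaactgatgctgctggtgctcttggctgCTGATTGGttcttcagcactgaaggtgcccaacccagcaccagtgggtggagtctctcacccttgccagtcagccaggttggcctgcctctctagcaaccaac

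The first base of the box lay 51 bases before the RefSeq start of H2-Aa, 62 before that of H2-Eb1 and 103 before that of H2-Eb2. The window of H2-Oa, which ends at 34092378, runs past the start of the gene at 34092340 in GENCODE, and is not shown. H2-Eb2 itself was the lowest of these, at 157, 177 and 178 in cDC2s and 0.1904 and 0.25999 in T cells (log2 difference -7.13 ± 0.20, limma adjusted p = 5.08e-08). Of the class II list, 1 of 17 tested members were called higher in T cells and 15 higher in cDC2s, and the median log2 difference was -6.33. H2-DMa and H2-DMb2, whose products exchange peptides on class II, differed by -3.54 ± 0.13 and -8.08 ± 0.16, and H2-Oa and H2-Ob, which encode the inhibitor of that exchange, by -4.36 ± 0.13 and -2.6 ± 0.16. T cells held means of 49.03 for H2-DMa, 31.2 for H2-Oa and 49.8 for H2-Ob, above the 10.1 for H2-Aa. Ctss, the cathepsin that trims the invariant chain, was high in both, 256 and 260.1 in T cells and 1506, 1498 and 1689.9 in cDC2s (log2 difference -2.59 ± 0.11, limma adjusted p = 3.92e-07). Of the RFX complex that binds the class II promoters, Rfx5 was higher in cDC2s (-2.45 ± 0.18), Rfxank higher in T cells (15.5 against 6.78, 1.12 ± 0.30) and Rfxap not called (38.1 against 64.01, adjusted p = 0.235). Rfxank was no longer called without T cell library 1 or 2 (limma adjusted p = 0.119 to 0.141). Rfxap was called higher in cDC2s without cDC2 library 3 (limma adjusted p = 0.00361).

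The transcription factors of dendritic cells were higher in cDC2s in most cases (1 of 28 tested members were called higher in T cells and 24 higher in cDC2s), and the median log2 difference was -3.48. Spi1, which encodes PU.1, read 572, 653 and 602 in cDC2s and 1.55 and 3.06 in T cells (log2 difference -7.57 ± 0.21, limma adjusted p = 5.31e-08). Zbtb46, a factor of conventional dendritic cells, read 169, 158 and 148 in cDC2s and 0.214 and 0.402 in T cells (log2 difference -6.93 ± 0.20, limma adjusted p = 6.33e-08), and Zfp366, also known as DC-SCRIPT, read 208, 214 and 191 in cDC2s and 0 and 0.0709 in T cells. Irf4, on which many cDC2s depend, read 77.7, 66.9 and 82.6 in cDC2s and 5.33 and 6.901 in T cells (log2 difference -3.43 ± 0.21, limma adjusted p = 3.07e-06). Irf8, which sets the cDC1 and plasmacytoid lineages, was low in both, 9.08 and 11.7 in T cells and 15.8, 9.46 and 13.5 in cDC2s, and was not called (log2 difference -0.27 ± 0.28, limma adjusted p = 0.434). Klf4 (-5.93 ± 0.28), Zeb2 (-6.01 ± 0.36), Relb (-3.62 ± 0.14) and Nr4a3 (-3.68 ± 0.26) were higher in cDC2s, as was Batf3 at 211, 211 and 177 in cDC2s and 0.333 and 0.295 in T cells. Batf was the member higher in T cells (62.2 against 23.4, 1.38 ± 0.19). The letters GAGGAAGT, a PU.1 site, stood on either strand in 82 of the 1426 matched promoters (5.75%) of genes called at least 4-fold higher in cDC2s and in 24 of 648 (3.70%) of those higher in T cells, against 3.53% for tested genes and 3.20% for all promoters. RUNX letters (TGTGGTT) stood in 4.21% and 5.09% against 3.82% and 5.27%, and TCF letters (CTTTGAT) in 2.10% and 2.93% against 2.55% and 3.73%. These shares are descriptions of 300-base windows.

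Among surface and identity genes of cDC2s, 1 of 20 tested members were called higher in T cells and 19 higher in cDC2s. The median log2 difference was -5.3 over the members that were not at 0 throughout 1 cell type (1 was), and -5.43 with it. T cells were the only comparison, so these counts do not tell cDC2s from other dendritic or myeloid cells. Itgax, which encodes CD11c, read 642, 594 and 558 in cDC2s and 1.06 and 2.46 in T cells (log2 difference -7.81 ± 0.23, limma adjusted p = 6.20e-08). Flt3 read 231, 212 and 231 in cDC2s and 0.559 and 0.496 in T cells. Clec4a4, the DCIR2 lectin of splenic cDC2s, stood at 187, 189 and 189.6 and was listed at 0 in both T cell libraries. Cd209a read 125, 125 and 139 in cDC2s and 0.559 and 1.29 in T cells (log2 difference -6.11 ± 0.23, limma adjusted p = 2.28e-07), and Esam, carried by the Notch-dependent splenic cDC2s, read 53.7, 54.5 and 28.1 in cDC2s and 0.0833 and 0.177 in T cells. The short-chain fatty acid receptor gene Ffar2 was among the widest, at 558, 537 and 675 in cDC2s and 0.2499 and 0.0591 in T cells (log2 difference -9.0 ± 0.18, limma adjusted p = 1.86e-08). Clec10a and Mgl2, lectins often used to mark cDC2s, were low: Clec10a read 2.698, 6.07 and 6.12 in cDC2s and 1.73 and 0.51997 in T cells (log2 difference -1.49 ± 0.38, limma adjusted p = 0.0101). Mgl2 read 2.799, 2.02 and 0.595 in cDC2s and 0 and 0.0591 in T cells and was not tested. Of the 8 cDC1 markers, 7 were tested, with 5 called higher in cDC2s and 1 higher in T cells. They summed to 1483 to 1901 in cDC2s and 39.0 to 56.4 in T cells. Among them Xcr1 read 0.962, 0.595 and 0.122 in cDC2s and Clec9a 8.899, 7.196 and 5.81, and Batf3 is given above. Wdfy4, needed for cross-presentation in cDC1s, read 1652, 1512 and 1275 in cDC2s and 0.262 and 0.508 in T cells (log2 difference -10.06 ± 0.17, limma adjusted p = 9.04e-09) and was one of the 15 widest differences. So was the transmembrane protein gene Adam23, at 729.6, 763 and 657 in cDC2s and 0.0357 and 0.0118 in T cells. Ltb, which encodes a lymphotoxin chain, was the member of the list higher in T cells, at 839.9 and 842 in T cells and 295, 282 and 255 in cDC2s (log2 difference 1.6 ± 0.12, limma adjusted p = 9.05e-06). Clec10a was no longer called with quantile scaling or without T cell library 1 or 2 (limma adjusted p = 0.0621 to 0.178).

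Markers of other cells were read in the same libraries. The 12 T cell markers summed to 6237 and 6247 in T cells and to 23.1 to 32.5 in cDC2s, most of the latter from Cd5 (20.8, 23.4 and 26.5). The 12 cDC2 markers summed to 45.4 and 62.9 in T cells and to 36352 to 42633 in cDC2s. The 9 markers of red pulp macrophages were all called higher in cDC2s, with sums of 294 to 450.2 against 27.6 and 33.4, among them Adgre1, which encodes F4/80, at 116, 117 and 127, and C1qa at 43.5, 19.02 and 18.95 in cDC2s. Their part in the myeloid genes of the cDC2 libraries was not tested. The 8 neutrophil markers summed to 5.71 to 12.8 in T cells and to 0 to 4.18 in cDC2s. Of the 3 that were tested, 2 were called higher in T cells, while Ly6g was at 0 in all 5 libraries. Immunoglobulin genes took 0.254% and 0.289% of the deposited TPM in T cells, and the joining chain gene Jchain read 67.8 and 76.02 in T cells and 6.66, 11.8 and 6.75 in cDC2s (log2 difference 3.0 ± 0.28, limma adjusted p = 4.01e-05). The plasma cell markers as a set, to which Jchain belongs, were not on 1 side. All 6 summed to 119 to 139 in T cells and to 160 to 184 in cDC2s. Of the 5 tested, 2 were called higher in T cells and 2 higher in cDC2s. Csf1r, a receptor of monocytes and macrophages that some dendritic cells share, read 109, 84.2 and 104 in cDC2s and 2.78 and 4.999 in T cells. It was 1 of 7 monocyte markers, of which 4 were tested. Of these 2 were called higher in T cells and only Csf1r higher in cDC2s. The 7 summed to 726 to 905 in T cells, mostly from Ly6c2 (T cell mean 790), and to 95.4 to 122 in cDC2s. C1qa was no longer called without T cell library 1 or 2 (limma adjusted p = 0.0577 to 0.0736).

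Receptors for microbial products were concentrated on the cDC2 side. Of the Toll-like receptors and adaptors, 1 of 25 tested members were called higher in T cells and 22 higher in cDC2s, and the median log2 difference was -1.96 over the members that were not at 0 throughout 1 cell type (1 was), and -2.1 with it. Tlr9, the receptor for bacterial DNA, read 133, 140.3 and 124 in cDC2s and 0.4403 and 0.485 in T cells (log2 difference -6.51 ± 0.20, limma adjusted p = 7.88e-08). Tlr13 read 64.5, 74.3 and 72.8 in cDC2s and 0.131 and 0.425 in T cells, and Tlr5 stood at 30.5, 30.3 and 30.9 in cDC2s and at 0 in T cells. Unc93b1, the chaperone that carries the nucleic acid receptors to endosomes, read 851, 809 and 798 in cDC2s and 9.26 and 11.7 in T cells (log2 difference -6.17 ± 0.14, limma adjusted p = 2.37e-08). Ly86 (-6.9 ± 0.18) and Cd180 (-6.23 ± 0.26), which form a receptor complex together, were also higher in cDC2s, while Cd14 stood at a mean of 3.18 there. Tlr12 was the member higher in T cells (14.3 against 6.401, 1.11 ± 0.34). Of the cytosolic sensors and inflammasome genes, 1 of 19 tested members were called higher in T cells and 15 higher in cDC2s, led by Il1b and Nlrp3. Nlrp3 read 75.7, 61.3 and 79.3 in cDC2s and 0.119 and 0.106 in T cells (log2 difference -6.03 ± 0.24, limma adjusted p = 2.61e-07). Il1b read 412, 457 and 1176 in cDC2s and 3.19 and 0.154 in T cells (log2 difference -8.11 ± 0.59, limma adjusted p = 8.95e-06), with cDC2 library 3 the highest. Pycard, the ASC adaptor, was higher in T cells (87.7 against 40.4, 1.11 ± 0.17), and the STING gene Tmem173 was not called (113 against 104, adjusted p = 0.496). Of the lectins, 1 of 13 tested members were called higher in T cells and 12 higher in cDC2s. The one higher in T cells was Ly75, which encodes DEC-205, at 21.4 and 38.8 in T cells and 13.6, 13.5 and 11.4 in cDC2s (log2 difference 1.12 ± 0.28, limma adjusted p = 0.00965). Cd14 and Tlr12 were no longer called with no filter or without T cell library 1 or 2 (limma adjusted p = 0.0599 to 0.217). Tmem173 was called higher in T cells with quantile scaling, with median-of-ratios scaling or with a total without ribosomal protein and histone genes (limma adjusted p = 0.00729 to 0.0357). Ly75 was no longer called without T cell library 2 (limma adjusted p = 0.0827).

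The 2 cell types used different members of the same signalling families, and several pairs of relatives went in opposite directions. Receptors with ITAM motifs signal through Zap70 in T cells and through its relative Syk in myeloid cells. Zap70 read 177 and 185 in T cells and 2.57, 0 and 0 in cDC2s (log2 difference 6.9 ± 0.53, limma adjusted p = 1.30e-05). Syk read 0.619 and 1.32 in T cells and 257, 232 and 222 in cDC2s (log2 difference -6.94 ± 0.21, limma adjusted p = 8.13e-08). The ITAM adaptors of myeloid receptors, Fcer1g and Tyrobp, were the counterpart of the CD3 chains: Fcer1g read 7.53 and 14.3 in T cells and 963, 886 and 1125 in cDC2s (log2 difference -6.43 ± 0.24, limma adjusted p = 2.11e-07). Tyrobp read 17.6 and 22.7 in T cells and 717, 757 and 757 in cDC2s (log2 difference -5.15 ± 0.14, limma adjusted p = 5.27e-08). Hcst, the DAP10 adaptor, was higher in T cells (335 against 12.3, 4.68 ± 0.24). The inhibitory receptors Pirb (1.42 against 299, -6.96 ± 0.19) and Cd300lf (-7.15 ± 0.22) and the inhibitory Fc receptor Fcgr2b (-4.16 ± 0.39) were higher in cDC2s. Over the Fc receptor and ITAM list, 4 of 17 tested members were called higher in T cells and 12 higher in cDC2s, and the median log2 difference was -4.45. Notch1, which drives T lineage commitment, and Notch2, on which splenic cDC2s depend, also parted: Notch1 read 25.99 and 50.7 in T cells and 1.55, 0.5204 and 1.01 in cDC2s (log2 difference 4.23 ± 0.36, limma adjusted p = 2.13e-05). Notch2 read 8.26 and 15.2 in T cells and 158, 162 and 134 in cDC2s (log2 difference -3.64 ± 0.25, limma adjusted p = 6.19e-06). The Notch target Hes1 (0.219 against 37.97, -5.0 ± 0.25) and the ligand gene Jag1 (0.166 against 22.4, -4.32 ± 0.25) were higher in cDC2s. In the Notch list 5 of 17 tested members were called higher in T cells and 10 higher in cDC2s, with a median of -0.57. The number higher in cDC2s was 8 under the 4 other scalings, with no variance trend, with the length trend removed or without cDC2 library 1 or 2. The median was -0.34 without T cell library 1. For both lists of this paragraph, the shares over all tested genes were 24.5% higher in T cells and 34.9% higher in cDC2s.

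The CD47 and SIRP genes were unequal between the partners. Cd47 (chromosome 16, 49800533 to 49915010, plus strand) read 164 and 275 in T cells and 201, 214 and 219 in cDC2s, so the cDC2 range lay within the T cell range, and it was not called (log2 difference 0.0069 ± 0.21, limma adjusted p = 0.98). Its receptor gene Sirpa (chromosome 2, 129592835 to 129632228, plus strand) read 2.27 and 3.29 in T cells and 628, 663 and 667 in cDC2s (log2 difference -7.45 ± 0.17, limma adjusted p = 2.12e-08). The related Sirpb1a read 0.167 and 0.414 in T cells and 273, 268 and 242 in cDC2s (log2 difference -7.67 ± 0.19, limma adjusted p = 3.63e-08), with Sirpb1b (-5.22 ± 0.24) and Sirpb1c (-5.38 ± 0.29) in the same direction, and as near copies of each other and of Sirpa these genes may share reads. Ptpn6, the SHP-1 phosphatase that SIRP alpha recruits, read 188 and 217 in T cells and 1078, 1084 and 986 in cDC2s (log2 difference -2.37 ± 0.12, limma adjusted p = 1.00e-06), while Ptpn11, which encodes SHP-2, was not called (34.1 against 52.2, adjusted p = 0.096). Skap2, an adaptor downstream of SIRP alpha, differed by -4.75 ± 0.16. Of the list, 0 of 12 tested members were called higher in T cells and 9 higher in cDC2s. The CD47 ligand gene Thbs1 was near 0 in both (0.00591 against 0.106) and was not tested. Cd47 was called higher in cDC2s without T cell library 2 (log2 difference -0.36, limma adjusted p = 0.0416). Cd47 was called higher in T cells without T cell library 1 (limma adjusted p = 0.0412). Ptpn11 was called higher in cDC2s without cDC2 library 3 (limma adjusted p = 0.0171).

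Other receptor and ligand pairs were read across the 2 cell types, with the gene listed for T cells first. Of 46 pairs, both genes were tested in 36, and in 18 of these the first was called higher in T cells and the second in cDC2s, against 2 with the reverse. Both genes were higher in T cells in 6 pairs and both higher in cDC2s in 4, and some genes take part in several pairs. Because each pair was listed with its T cell gene first, the direction of these counts follows in part from that choice. Of all tested genes, 24.5% were called higher in T cells and 34.9% higher in cDC2s. Cd80 read 26.2, 35.5 and 38.6 in cDC2s and 0.702 and 1.13 in T cells (log2 difference -4.16 ± 0.27, limma adjusted p = 4.69e-06) and Cd86 72.8, 83.3 and 87.7 in cDC2s and 11.1 and 14.1 in T cells (log2 difference -2.6 ± 0.19, limma adjusted p = 9.84e-06), both ligands of Cd28 and Ctla4. Cd40, the receptor for Cd40lg, read 67.5, 85.2 and 51.8 in cDC2s and 0.809 and 0.177 in T cells (log2 difference -5.54 ± 0.30, limma adjusted p = 1.81e-06). Icosl read 227, 213 and 185 in cDC2s and 3.88 and 3.72 in T cells (log2 difference -5.44 ± 0.17, limma adjusted p = 9.05e-08). Cd6 (6.96 ± 0.42) and its ligand Alcam (-5.31 ± 0.22) were the most widely parted of the pairs in which neither gene was at 0 throughout a cell type. Cxcr6 stood at 64.5 and 62.4 in T cells and was listed at 0 in cDC2s, and its ligand Cxcl16 differed by -5.35 ± 0.27. Itgal, a chain of LFA-1 (1.4 ± 0.18), and its ligand Icam1 (-2.15 ± 0.16) parted as well, as did Ltb (1.6 ± 0.12) and Ltbr (-4.66 ± 0.24). One of the reversed pairs was Havcr2 with Lgals9 (1.59 ± 0.14 for Lgals9). Among the costimulatory ligands, 4 of 15 tested members (26.7%) were called higher in T cells and 8 (53.3%) higher in cDC2s. The T cell share was near the 24.5% of all tested genes. Cd274, the PD-L1 gene, read 103, 93.3 and 104 in cDC2s and 16.4 and 20.4 in T cells (log2 difference -2.39 ± 0.17, limma adjusted p = 8.81e-06) and the maturation marker Cd83 160.4, 186 and 261 in cDC2s and 6.09 and 5.87 in T cells (log2 difference -4.83 ± 0.22, limma adjusted p = 6.77e-07). Pvr (21.8 against 3.53, 2.35 ± 0.32) and Tnfsf8 (44.1 against 6.896, 2.51 ± 0.22) were higher in T cells.

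**Figure D4:**
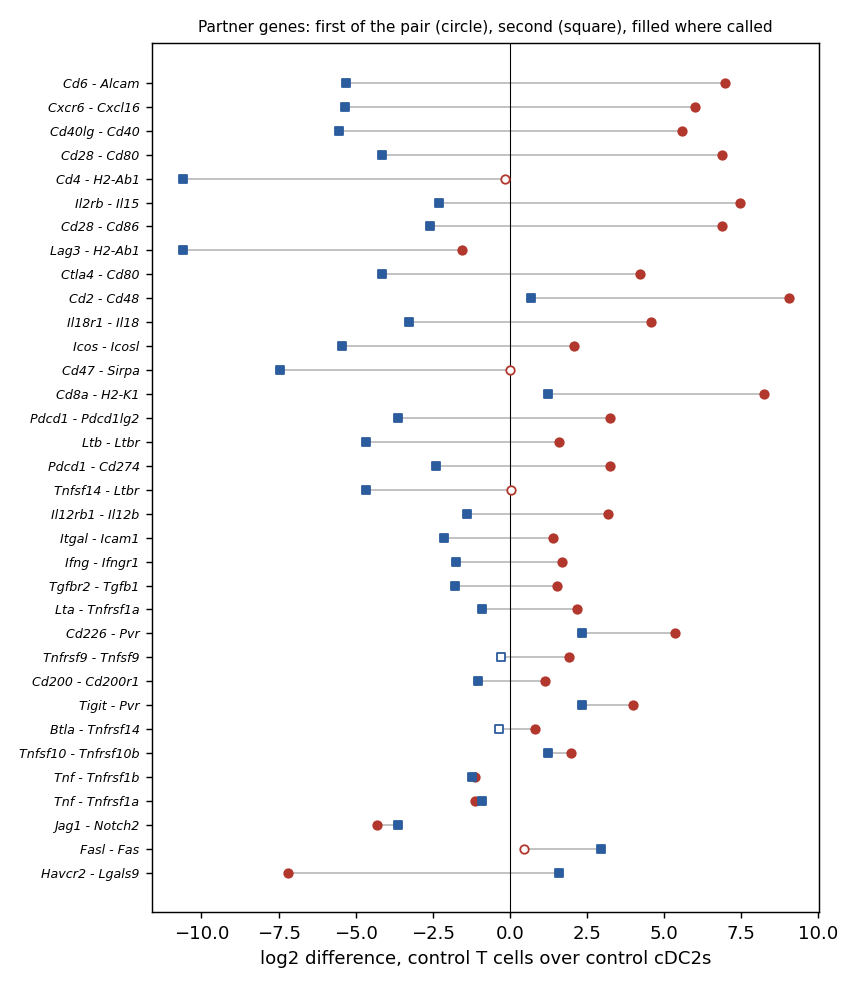
Log2 difference of 34 of the 36 receptor and ligand pairs with both genes tested. Circles are the first gene of a pair and squares the second, filled where the gene was called, positive values are higher in T cells, genes at 0 throughout 1 cell type are plotted at their value with 1 added, and in 18 pairs the circle is called on the T cell side and the square on the cDC2 side.

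Genes of necroptosis and death receptors were called in both directions: 5 of 20 tested members were called higher in T cells and 9 higher in cDC2s, against 24.5% and 34.9% of all tested genes. Necroptosis is a death pathway in which Ripk1 and Ripk3 activate Mlkl when Casp8 is blocked. Ripk3 was higher in T cells, at 33.8 and 36.9 in T cells and 13.3, 13.4 and 11.4 in cDC2s (log2 difference 1.41 ± 0.21, limma adjusted p = 5.83e-04), and Ripk1 higher in cDC2s, at 31.8 and 44.5 in T cells and 72.5, 60.3 and 65.4 in cDC2s (log2 difference -0.79 ± 0.20, limma adjusted p = 0.0086). Mlkl was low in both, 0.666 and 0.532 in T cells and 1.44, 3.75 and 0.919 in cDC2s, and was not tested. Casp8 read 123 and 133 in T cells and 97.7, 81.5 and 83.98 in cDC2s (log2 difference 0.54 ± 0.15, limma adjusted p = 0.0139). Fas, the death receptor, read 28.4 and 29.3 in T cells and 6.88, 5.08 and 0.216 in cDC2s (log2 difference 2.95 ± 0.70, limma adjusted p = 0.00723), and its ligand Fasl was low in both (7.48 against 5.66, adjusted p = 0.334). Tnf read 19.1 and 19.1 in T cells and 34.5, 41.3 and 56.8 in cDC2s (log2 difference -1.14 ± 0.24, limma adjusted p = 0.00375), and the inhibitors Birc3 (70.9 against 336, -2.23 ± 0.14) and Tnfaip3 (31.7 against 133, -2.05 ± 0.18), targets of NF-kB, were higher in cDC2s. The median of the list was -0.31. It was 0.027 with quantile scaling, and the number higher in T cells was 2 when either T cell library was left out. Ripk1 was no longer called without T cell library 1 (limma adjusted p = 0.0625). Casp8 was no longer called without T cell library 1 or 2 or without cDC2 library 2 (limma adjusted p = 0.0526 to 0.0737). Fas and Tnf were no longer called without T cell library 1 or 2 (limma adjusted p = 0.0733 to 0.169). Fasl was called higher in T cells without cDC2 library 1 (limma adjusted p = 0.024).

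The survival genes of the BCL2 family were divided between the cell types. Bcl2 (chromosome 1, 106538178 to 106714274, minus strand) read 53.6 and 73.6 in T cells and 4.85, 2.304 and 3.24 in cDC2s (log2 difference 3.88 ± 0.31, limma adjusted p = 1.49e-05). Bcl2a1b, a related survival gene induced by NF-kB, read 38.2 and 34.96 in T cells and 644, 751 and 592 in cDC2s (log2 difference -4.14 ± 0.14, limma adjusted p = 1.35e-07), with Bcl2a1d (9.81 against 428) and Bcl2a1a (0.0709 against 258) in the same direction. The 3 are near-identical copies, so their single values are uncertain. Mcl1 was high in both and higher in cDC2s, 252 and 322 in T cells and 669, 608 and 605 in cDC2s (log2 difference -1.14 ± 0.14, limma adjusted p = 1.81e-04), and Bcl2l1, which encodes BCL-XL, was not called (16.02 against 18.02, adjusted p = 0.954). Among the genes that promote death, Pmaip1, which encodes NOXA, read 2.45 and 5.42 in T cells and 381, 417 and 525 in cDC2s (log2 difference -6.54 ± 0.27, limma adjusted p = 3.72e-07) and Bmf 2.34 and 4.25 in T cells and 52.7, 80.4 and 63.4 in cDC2s (log2 difference -3.97 ± 0.28, limma adjusted p = 7.98e-06), while Bcl2l11, which encodes BIM, was higher in T cells (32.6 against 15.1, 1.05 ± 0.27), as was Bax (111 against 48.6, 1.18 ± 0.16). In the BCL2 and caspase list 4 of 22 tested members were called higher in T cells and 13 higher in cDC2s, against 24.5% and 34.9% of all tested genes. The median log2 difference was -0.84. Bcl2l11 was no longer called without T cell library 1 or 2 (limma adjusted p = 0.0522 to 0.132).

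The class I pathway was present in both cell types with smaller differences: 12 of 21 tested members were called higher in T cells and 3 higher in cDC2s, and the median log2 difference was 0.46. B2m, the shared light chain, read 5882 and 5601 in T cells and 3710.00, 4008 and 4143 in cDC2s (log2 difference 0.54 ± 0.097, limma adjusted p = 0.0017). H2-K1 read 3502 and 3693 in T cells and 1655, 1586 and 1377 in cDC2s (log2 difference 1.23 ± 0.11, limma adjusted p = 3.68e-05). H2-Q7 had the widest gap (872 against 141, 2.62 ± 0.15), with the caution that the H2-Q genes are near copies. Nlrc5, the class I transactivator, was higher in T cells (110.4 against 38.7, 1.5 ± 0.23), in contrast to Ciita. The peptide transporter Tap1 (179.9 against 196, adjusted p = 0.415) and the immunoproteasome gene Psmb8 (511 against 506, adjusted p = 0.912) were not called. The chaperone Calr was higher in cDC2s (329.9 against 738, -1.16 ± 0.13). Genes of lysosomal hydrolases were higher in cDC2s in 20 of 28 cases, with a median of -1.09. Ctsh read 430.3, 449 and 398 in cDC2s and 2.02 and 4.08 in T cells (log2 difference -6.77 ± 0.23, limma adjusted p = 1.21e-07) and Ctsz 568, 589 and 614 in cDC2s and 41.8 and 42.4 in T cells (log2 difference -3.78 ± 0.12, limma adjusted p = 8.73e-08), and the progranulin gene Grn (-3.83 ± 0.16) and the acid ceramidase gene Asah1 (-2.76 ± 0.15) followed. The members called higher in T cells were Ctsd, at 341 and 396 in T cells and 69.3, 56.3 and 64.7 in cDC2s (log2 difference 2.52 ± 0.15, limma adjusted p = 3.06e-06), and the cholesterol carrier Npc2, at 262 and 234 in T cells and 28.8, 29.4 and 29.1 in cDC2s (log2 difference 3.05 ± 0.15, limma adjusted p = 8.85e-07). The number higher in T cells was 5 under the 4 other scalings and 4 in 1 fit of all 10 libraries. B2m and H2-K1 were no longer called with quantile scaling (limma adjusted p = 0.0555 to 0.752). Psmb8 was called higher in T cells with quantile scaling (limma adjusted p = 0.0138).

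Chemokine receptors were mainly on the T cell side and chemokines on the cDC2 side (11 of 16 tested members were called higher in T cells and 2 higher in cDC2s, and for chemokines and inflammatory cytokines 1 and 13 of 15). Cxcr4 (280.2 against 49.9, 2.38 ± 0.31), Cxcr3 (61.3 against 2.37, 4.26 ± 0.33), the follicle-homing receptor Cxcr5 (23.8 against 0.439, 4.15 ± 0.32) and the gut-homing receptor Ccr9 (46.1 against 1.81, 4.08 ± 0.26) were higher in T cells. Ccr6 read 2.09 and 4.07 in T cells and 60.6, 43.3 and 42.3 in cDC2s (log2 difference -3.63 ± 0.29, limma adjusted p = 1.65e-05). Cx3cr1 differed by -2.61 ± 0.29, both higher in cDC2s. Gpr183, the EBI2 receptor that positions splenic cDC2s, did not pass the test (56.6 against 72.6, adjusted p = 0.0949). Of the ligands, Ccl6 (-3.28 ± 0.27) and Ccl3 (-2.83 ± 0.30) were higher in cDC2s, and Tgfb1 read 397, 379 and 424 in cDC2s and 112 and 121 in T cells (log2 difference -1.77 ± 0.12, limma adjusted p = 6.66e-06). Il6, Il12a, Il23a, Ccl17 and Cxcl2 were at 0 in all 3 cDC2 libraries, and Il12b stood at 1.21, 1.93 and 1.81. In the list of integrins and their adhesion partners, 8 of 17 tested members (47.1%) were called in each direction. Over all tested genes the shares were 24.5% for T cells and 34.9% for cDC2s. Itgb2 (-1.3 ± 0.12), Itgam (-5.16 ± 0.22) and Itgav (-2.86 ± 0.27) were higher in cDC2s and Itgae (4.87 ± 0.32), Itga6 (4.78 ± 0.28) and Itgb7 (1.49 ± 0.14) higher in T cells. Gpr183 was called higher in cDC2s with the length trend removed or in 1 fit of all 10 libraries (limma adjusted p = 0.0293 to 0.0328).

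Immediate early and NF-kB genes were all on the cDC2 side: 0 of 25 tested members were called higher in T cells and 25 higher in cDC2s, and the median log2 difference was -2.52. Fos, an AP-1 subunit, read 1137, 1349 and 2796 in cDC2s and 5.19 and 7.76 in T cells (log2 difference -7.79 ± 0.36, limma adjusted p = 6.15e-07). Jun read 789, 707 and 1252 in cDC2s and 4.01 and 5.18 in T cells (log2 difference -7.32 ± 0.25, limma adjusted p = 1.21e-07), the phosphatase Dusp1 650.5, 592 and 1187 in cDC2s and 8.89 and 11.5 in T cells and the stress factor Atf3 54.5, 72.7 and 202 in cDC2s and 0.631 and 0.319 in T cells. Egr1 read 397, 380.3 and 807 in cDC2s and 36.4 and 50.3 in T cells (log2 difference -3.5 ± 0.32, limma adjusted p = 3.51e-05). In all 5 of these genes cDC2 library 3 was the highest. The number of the list called higher in cDC2s was 20 without T cell library 1, 21 without T cell library 2 and 22 with quantile scaling or the deposited TPM. Without cDC2 library 3 the list gave 25 of 25 called higher in cDC2s with a median of -2.58. Of the NF-kB subunits, Relb (30.4 against 387, -3.62 ± 0.14) and Nfkb1 (139 against 571, -2.04 ± 0.15) differed more than Rela (72.7 against 103, -0.50 ± 0.15). Type I interferon response genes were lower in T cells for 17 of 29 members, with a median of -0.71, and 1 was higher there. The number higher in T cells was 3 under the 4 other scalings, and the median was then -0.49 to -0.41. Ifitm3, an antiviral membrane protein, read 479.9, 469 and 512 in cDC2s and 4.37 and 9.56 in T cells (log2 difference -6.02 ± 0.26, limma adjusted p = 4.80e-07) and Oasl2 differed by -2.62 ± 0.23, whereas Bst2, which encodes tetherin, was higher in T cells at 131 and 116 in T cells and 13.8, 23.7 and 23.1 in cDC2s (log2 difference 2.58 ± 0.25, limma adjusted p = 5.41e-05). Rela was no longer called under the 4 other scalings, without T cell library 1 or without cDC2 library 1 (limma adjusted p = 0.0705 to 0.267).

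Genes of cell division were higher in cDC2s, with 29 of 32 called and none called higher in T cells, and the median log2 difference was -1.69. Mki67 read 153, 187 and 133 in cDC2s and 7.37 and 15.4 in T cells (log2 difference -3.75 ± 0.29, limma adjusted p = 1.30e-05), Top2a 131, 145 and 130.3 in cDC2s and 17.6 and 32.2 in T cells (log2 difference -2.45 ± 0.24, limma adjusted p = 5.69e-05) and Ube2c 112, 134 and 92.6 in cDC2s and 13.1 and 18.6 in T cells. Pcna (201 against 165, adjusted p = 0.188) and Mcm4 (50.4 against 64.4, adjusted p = 0.108) were not called. The replication-dependent histone genes moved the same way and by more, 58 of 60 tested genes, and filled 10 of the 15 widest differences on the cDC2 side. Hist1h2ap, for example, read 1753, 2338 and 2420.2 in cDC2s and 0 and 0.579 in T cells, and Hist1h1e, a linker histone, read 1335, 1634 and 1289 in cDC2s and 0.607 and 0.64996 in T cells. Their transcripts are not polyadenylated and the T cell kit selects mRNA by poly(A) by its known chemistry, so kit and cell type cannot be told apart for them. Many are also near-identical copies. Ribosomal protein genes went the other way, with 67 of 77 called higher in T cells and a median of 1.2. The 2 called higher in cDC2s were Rpl29 (2725 against 3538, -0.38 ± 0.10) and Rpl26 (4846 against 6107, -0.34 ± 0.12). That number was 1 with 0.1 added, with no filter or without cDC2 library 1 or 3 and 0 with the deposited TPM, with median-of-ratios scaling, with a total without ribosomal protein and histone genes, with no variance trend or without T cell library 2 and 11 with quantile scaling and 5 with the length trend removed or in 1 fit of all 10 libraries. Nuclear genes of oxidative phosphorylation were called higher in T cells in 38 of 76 cases and in cDC2s in 10, and these genes have short transcripts. For cDC2s this number was 6 with the deposited TPM or with median-of-ratios scaling and 4 with quantile scaling or without T cell library 2 and 5 with a total without ribosomal protein and histone genes and 16 with the length trend removed, where removing the length trend was added after the data were seen. For T cells it was 24 without T cell library 1. Pcna was called higher in T cells under the 4 other scalings (limma adjusted p = 0.0148 to 0.036). Mcm4 was called higher in cDC2s with the length trend removed or in 1 fit of all 10 libraries (limma adjusted p = 0.0164 to 0.0461). Rpl29 was no longer called with the deposited TPM, with median-of-ratios scaling, with a total without ribosomal protein and histone genes, with no variance trend or without T cell library 2 (limma adjusted p = 0.101 to 0.625). Rpl26 was no longer called with 0.1 added, with no filter, with the deposited TPM, with median-of-ratios scaling, with a total without ribosomal protein and histone genes, with no variance trend, without T cell library 1 or 2 or without cDC2 library 1 or 3 (limma adjusted p = 0.0581 to 0.841).

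In metabolism, glycolysis genes included isoforms called in opposite directions. In the list 13 of 22 tested members (59.1%) were called higher in T cells and 6 (27.3%) higher in cDC2s, against 24.5% and 34.9% of all tested genes. The median log2 difference was 0.49. It was 0.72 to 0.86 under the 4 other scalings and 0.24 with the length trend removed. The number higher in T cells was 10 with the length trend removed and 11 without cDC2 library 1 or 2. The hexokinase gene Hk2 read 1.38 and 1.35 in T cells and 59.6, 54.8 and 42.4 in cDC2s (log2 difference -4.48 ± 0.24, limma adjusted p = 1.69e-06) and Hk1 was higher in T cells (69.1 against 47.6, 0.52 ± 0.17). Slc2a1, the GLUT1 transporter, was higher in T cells (26.7 against 10.9, 1.22 ± 0.21) and Slc2a3, which encodes GLUT3, higher in cDC2s (27.9 against 97.2, -1.77 ± 0.24). The lactate transporter Slc16a1 read 25.003 and 30.7 in T cells and 0.301, 0.788 and 0.5002 in cDC2s (log2 difference 4.24 ± 0.26, limma adjusted p = 3.13e-06), and Ldha was higher in T cells (549.96 against 241, 1.19 ± 0.12). Gapdh, often taken as a reference gene, was not called (866 against 984, adjusted p = 0.228), whereas Actb was higher in cDC2s, at 15638, 15653 and 15079.5 in cDC2s and 4479.6 and 5008 in T cells (log2 difference -1.71 ± 0.094, limma adjusted p = 1.87e-06). Of the phagocyte NADPH oxidase, the subunit gene Cybb was higher in cDC2s, at 193, 179 and 184 in cDC2s and 1.92 and 4.16 in T cells (log2 difference -5.59 ± 0.25, limma adjusted p = 5.80e-07), while Rac2 was higher in T cells (722 against 259, 1.48 ± 0.12). Of lipid mediators, Alox5ap, which serves leukotriene synthesis, read 372, 381 and 357 in cDC2s and 6.95 and 5.22 in T cells (log2 difference -5.72 ± 0.16, limma adjusted p = 5.58e-08), and Ptgs2, the inducible cyclooxygenase, stood at 11.3, 14.7 and 37.3 in cDC2s and at 0 in T cells. The ectonucleotidases that make adenosine were divided, Entpd1, which encodes CD39, higher in cDC2s (2.805 against 86.05, -4.51 ± 0.20) and Nt5e, which encodes CD73, higher in T cells (29.7 against 0.0149, 4.9 ± 0.24). Apoe read 403, 361 and 335 in cDC2s and 15.4 and 20.5 in T cells (log2 difference -4.29 ± 0.17, limma adjusted p = 2.71e-07). Hk1 was no longer called with the length trend removed, without T cell library 2 or without cDC2 library 1 or 2 (limma adjusted p = 0.0647 to 0.239). Gapdh was called higher in cDC2s with the length trend removed (limma adjusted p = 0.0186).

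Receptors for lipid mediators and nucleotides, and ion channels, included genes called in each direction and genes not called. Of the eicosanoid and purine genes, 4 of 18 tested members were called higher in T cells and 10 higher in cDC2s. Of all tested genes, 24.5% and 34.9% were so called. The prostaglandin E receptors parted. Ptger1 read 37.1 and 51.2 in T cells and 0.287, 0.461 and 0.122 in cDC2s (log2 difference 5.12 ± 0.26, limma adjusted p = 1.22e-06). Ptger3 read 0.0833 and 0.189 in T cells and 36.1, 35.96 and 32.6 in cDC2s (log2 difference -4.98 ± 0.23, limma adjusted p = 6.90e-07). The other E receptor of the list with a high level, Ptger4 (24.1 against 21.05, adjusted p = 0.507), was not called. P2ry6, a receptor for UDP, read 49.8, 38.7 and 47.3 in cDC2s and 0.226 and 0.307 in T cells (log2 difference -5.18 ± 0.24, limma adjusted p = 6.77e-07), and P2ry10 (77.004 against 64.5, adjusted p = 0.331) was not called. Of the potassium and calcium channel genes, 5 of 14 tested members were called higher in T cells and 4 higher in cDC2s, against 24.5% and 34.9% of all tested genes, and the median log2 difference was -0.22. The number higher in cDC2s was 2 with the deposited TPM and 6 without T cell library 2. The median was 0.070 to 0.19 under the 4 other scalings, 0.052 with the length trend removed and 0.023 without T cell library 1. Kcnn4, a calcium-activated potassium channel of lymphocytes, read 127 and 136 in T cells and 2.38, 2.11 and 3.12 in cDC2s (log2 difference 5.23 ± 0.24, limma adjusted p = 5.72e-07). Trpm2, a channel opened by oxidative stress, read 0.202 and 0.343 in T cells and 60.5, 58.9 and 56.97 in cDC2s (log2 difference -5.56 ± 0.22, limma adjusted p = 3.15e-07). Orai2, a calcium entry channel, was higher in T cells (146 against 43.3, 1.72 ± 0.18) and the IP3 receptor Itpr1 higher in cDC2s (13.6 against 79.1, -2.53 ± 0.27), while Itpr3 (32.7 against 47.4, adjusted p = 0.0647) and Trpv2 (51.3 against 56.1, adjusted p = 0.673) were not called. Among cholesterol and fatty acid genes, 7 of 23 tested members were called higher in T cells and 8 higher in cDC2s, against 24.5% and 34.9% of all tested genes, and the median log2 difference was -0.19. Called higher in T cells were 4 with no filter and 2 without T cell library 1 or 2. Called higher in cDC2s were 4 with the deposited TPM, with quantile scaling or with a total without ribosomal protein and histone genes and 5 without T cell library 1. The median was 0.032 to 0.098 under the 4 other scalings, 0.25 with the length trend removed and 0.013 without T cell library 1. The sterol reductase gene Dhcr7 (31.1 against 8.96, 1.71 ± 0.28) was higher in T cells and the LXR alpha gene Nr1h3 (1.47 against 10.5, -2.2 ± 0.28) was higher in cDC2s, and Acly (109 against 92.7, adjusted p = 0.233) and Srebf1 (58.5 against 41.5, adjusted p = 0.153) were not called. Of the retinoid genes, 0 of 7 tested members were called higher in T cells and 3 (42.9%) higher in cDC2s, against 24.5% and 34.9% of all tested genes. Called higher in T cells were 1 with no filter, with the deposited TPM, with median-of-ratios scaling or with a total without ribosomal protein and histone genes and 2 with quantile scaling. Aldh1a2, which makes retinoic acid, read 6.33, 6.94 and 4.73 in cDC2s and 0.0595 and 0.0236 in T cells (log2 difference -2.74 ± 0.24, limma adjusted p = 2.94e-05), with Dhrs3 (1.91 against 30.5, -3.46 ± 0.26) and Rxrb (63.1 against 102, -0.67 ± 0.18) in the same direction. The retinoic acid receptors Rara (49.9 against 46.3, adjusted p = 0.632) and Rarg (38.9 against 28.9, adjusted p = 0.103) were not called. Itpr3 was called higher in cDC2s in 1 fit of all 10 libraries or without T cell library 2 (limma adjusted p = 0.0268 to 0.0294). Acly was called higher in T cells under the 4 other scalings, with the length trend removed or without T cell library 1 (limma adjusted p = 0.00284 to 0.0405). Srebf1 was called higher in T cells under the 4 other scalings or with the length trend removed (limma adjusted p = 0.0266 to 0.0361). Rxrb was no longer called with the deposited TPM, with quantile scaling, with a total without ribosomal protein and histone genes or without T cell library 1 or 2 (limma adjusted p = 0.0801 to 0.127). Rarg was called higher in T cells under the 4 other scalings (limma adjusted p = 0.00535 to 0.021).

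Further members of the lists above extended both sides. Thy1, the surface marker of T cells, read 850.1 and 832 in T cells and 1.55, 0.327 and 0.541 in cDC2s (log2 difference 8.92 ± 0.30, limma adjusted p = 1.21e-07) and was one of the 15 widest differences. Also higher in T cells were the factors Id3 (68.9 against 0.104, 6.0 ± 0.25) and Eomes (41.9 against 0.0347, 5.35 ± 0.26), the binding protein gene Igfbp4 (460.4 against 0.427, 8.41 ± 0.33), the IL-18 receptor chain Il18r1 (51.5 against 1.29, 4.58 ± 0.47), the TRAIL gene Tnfsf10 (16.9 against 3.88, 1.99 ± 0.46), the class I peptide editor Tapbpl (74.9 against 27.2, 1.43 ± 0.19) and the phosphofructokinase gene Pfkp (72.3 against 16.6, 2.05 ± 0.27). Higher in cDC2s were the corepressor Cbfa2t3 (0.961 against 397, -7.67 ± 0.16), the AP-1 subunit Fosb (1.601 against 252, -6.55 ± 0.28), the lectins Clec4a1 (0.924 against 111, -5.88 ± 0.23) and Clec4a2 (0.415 against 51.8, -5.21 ± 0.25), and the tetraspanin Cd63 (0.552 against 16.1, -3.45 ± 0.28). The sensors Nlrc4 (0.438 against 27.8, -4.32 ± 0.23), Nlrp1b (0.806 against 32.96, -4.22 ± 0.26) and Ifih1 (9.89 against 65.02, -2.62 ± 0.21), the oxidase subunit Ncf1 (24.6 against 215, -3.09 ± 0.17), the transporter Slc2a6 (0.421 against 17.7, -3.69 ± 0.28) and the mitotic genes Bub1b (5.31 against 53.8, -3.13 ± 0.27) and Tpx2 (5.79 against 56.1, -3.1 ± 0.24) were higher in cDC2s as well. The histone genes among the 15 widest on the cDC2 side also held Hist1h2af (0.268 against 2579), Hist1h2ak (0 against 2043), Hist1h1d (0.409 against 1871), Hist1h4k (0.284 against 1522), Hist1h3b (0 against 1113), Hist1h2ab (0.254 against 1193), Hist1h2bn (0 against 975) and Hist1h2bg (0.165 against 887). The uncalled members with the highest mean level in each list, which in short lists could be a low one, were, among lymphocyte genes, Ikzf1 (399.6 against 298, adjusted p = 0.0608), Il21r (141 against 115, adjusted p = 0.125), Il6ra (103 against 113, adjusted p = 0.502), Tnfrsf4 (26.9 against 16.2, adjusted p = 0.132), Klrk1 (22.6 against 15.3, adjusted p = 0.394) and Ccr2 (16.5 against 11.4, adjusted p = 0.213). Among sensors and myeloid receptors they were Traf6 (22.9 against 30.4, adjusted p = 0.157), Ly96 (3.74 against 6.32, adjusted p = 0.217), Ddx58 (71.4 against 82.6, adjusted p = 0.435), Zbp1 (132 against 103, adjusted p = 0.108) and Fcgr3 (4.59 against 9.85, adjusted p = 0.0762), and among lysosomal and class I genes Lamp1 (141 against 169, adjusted p = 0.109), Lipa (78.8 against 100.5, adjusted p = 0.108) and Tapbp (246 against 304, adjusted p = 0.0664). In death and signalling they were Cflar (91.1 against 119, adjusted p = 0.207), Casp6 (30.04 against 35.6, adjusted p = 0.416), Bbc3 (35.2 against 17.4, adjusted p = 0.0632), Ptk2b (112 against 123, adjusted p = 0.484), Adam10 (57.9 against 52.6, adjusted p = 0.608) and Maml1 (25.3 against 28.3, adjusted p = 0.525). In adhesion, chemokines and metabolism they were Itgb1 (104 against 130.3, adjusted p = 0.152), Vsir (259 against 184, adjusted p = 0.0752), Ccl4 (6.92 against 12.98, adjusted p = 0.208), Rac1 (382 against 407, adjusted p = 0.533), Dock2 (186 against 234, adjusted p = 0.147) and Gpi1 (328 against 322, adjusted p = 0.853). Tnfsf10 was no longer called without T cell library 1 or 2 (limma adjusted p = 0.101 to 0.157). Ikzf1 was called higher in T cells under the 4 other scalings, in 1 fit of all 10 libraries or without T cell library 1 (limma adjusted p = 0.00348 to 0.0474). Il21r and Zbp1 were called higher in T cells under the 4 other scalings (limma adjusted p = 0.00318 to 0.0177). Il6ra and Itgb1 were called higher in cDC2s without T cell library 2 (limma adjusted p = 0.0211 to 0.0305). Tnfrsf4 was called higher in T cells with the deposited TPM or without cDC2 library 2 (limma adjusted p = 0.02 to 0.046). Klrk1 was called higher in T cells without T cell library 1 (limma adjusted p = 0.0458). Ccr2, Adam10 and Gpi1 were called higher in T cells with quantile scaling or with a total without ribosomal protein and histone genes (limma adjusted p = 0.0092 to 0.0468). Ly96 was called higher in cDC2s without cDC2 library 2 (limma adjusted p = 0.0293). Fcgr3 was called higher in cDC2s with the length trend removed or without cDC2 library 2 (limma adjusted p = 0.0185 to 0.0406). Lamp1 and Lipa were called higher in cDC2s in 1 fit of all 10 libraries (limma adjusted p = 0.0415 to 0.0457). Tapbp was called higher in cDC2s with the length trend removed, in 1 fit of all 10 libraries or without T cell library 2 (limma adjusted p = 0.00309 to 0.0469). Cflar was called higher in cDC2s without cDC2 library 3 (limma adjusted p = 0.0407). Bbc3 was called higher in T cells under the 4 other scalings, with a filter of 5, with a robust variance trend, in 1 fit of all 10 libraries or without cDC2 library 3 (limma adjusted p = 0.00801 to 0.0483). Vsir was called higher in T cells under the 4 other scalings, with the length trend removed, in 1 fit of all 10 libraries or without cDC2 library 3 (limma adjusted p = 0.00773 to 0.0364). Rac1 was called higher in T cells with quantile scaling (log2 difference 0.32, limma adjusted p = 0.0248).

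The remaining receptor and ligand pairs held further genes of each side. The receptors Icos (45.03 against 10.1, 2.07 ± 0.27), Tnfrsf9 (21.7 against 5.29, 1.91 ± 0.33), Btla (60.4 against 34.2, 0.80 ± 0.18), Tgfbr2 (177 against 60.7, 1.52 ± 0.16) and Cd226 (75.1 against 0.893, 5.35 ± 0.31) were higher in T cells, as were the ligands Lta (17.4 against 3.38, 2.16 ± 0.38) and Cd200 (27.3 against 12.2, 1.13 ± 0.26). Ctla4, the inhibitory receptor for Cd80 and Cd86, read 21.7 and 17.4 in T cells and 0.316, 0 and 0 in cDC2s (log2 difference 4.22 ± 0.25, limma adjusted p = 2.80e-06). Ccr4 and Ifng were listed at 0 in all cDC2 libraries and stood at 6.18 and 8.73 and at 2.23 and 2.23 in T cells. Higher in cDC2s were the PD-1 ligand Pdcd1lg2 (1.76 against 33.6, -3.62 ± 0.27), the TNF receptors Tnfrsf1a (44.9 against 85.1, -0.91 ± 0.16) and Tnfrsf1b (39.8 against 94.4, -1.23 ± 0.16), the cytokine Il15 (0.113 against 4.47, -2.29 ± 0.23) and the receptor Cd200r1 (8.14 against 17.8, -1.04 ± 0.23). Il18 was also higher in cDC2s but varied widely there, at 18.8, 5.72 and 32.3 in cDC2s and 0.274 and 1.31 in T cells (log2 difference -3.26 ± 0.62, limma adjusted p = 0.00219). Partners listed for cDC2s that were higher in T cells were Cd48 (269 against 166, 0.68 ± 0.16), Selplg (791 against 458, 0.79 ± 0.11) and the TRAIL receptor Tnfrsf10b (3.76 against 1.03, 1.24 ± 0.26). Tnfsf14 (11.2 against 11.3, adjusted p = 0.956), Tnfrsf14 (49.3 against 63.5, adjusted p = 0.35) and Tnfsf9 (2.49 against 3.38, adjusted p = 0.443) were not called. Cd70, Tnfsf4, Csf1, Ccl22, Il27 and Dll1 stayed under the filter and were not tested, and Flt3l and Il7 gave no tested value. Tnfrsf9, Lta, Cd200 and Il18 were no longer called without T cell library 1 or 2 (limma adjusted p = 0.0566 to 0.127).

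Where few members of a list went against the rest, their number moved with the processing. The coreceptor members higher in cDC2s numbered 1 without T cell library 1 or 2. Members higher in T cells numbered 2 under the 4 other scalings, in 1 fit of all 10 libraries or without T cell library 1 among the dendritic cell factors. They numbered 0 without T cell library 1 or 2 in the class II list and 2 with no filter and 0 without T cell library 2 among the lectins. Toll-like receptor genes higher in T cells numbered 0 with no filter or without T cell library 1 or 2, and sensor genes 2 with quantile scaling, with median-of-ratios scaling or with a total without ribosomal protein and histone genes. Chemokines and inflammatory cytokines higher in T cells numbered 2 with no filter, with a total without ribosomal protein and histone genes or without T cell library 2, and cell cycle genes 1 under the 4 other scalings.

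**Figure D5:**
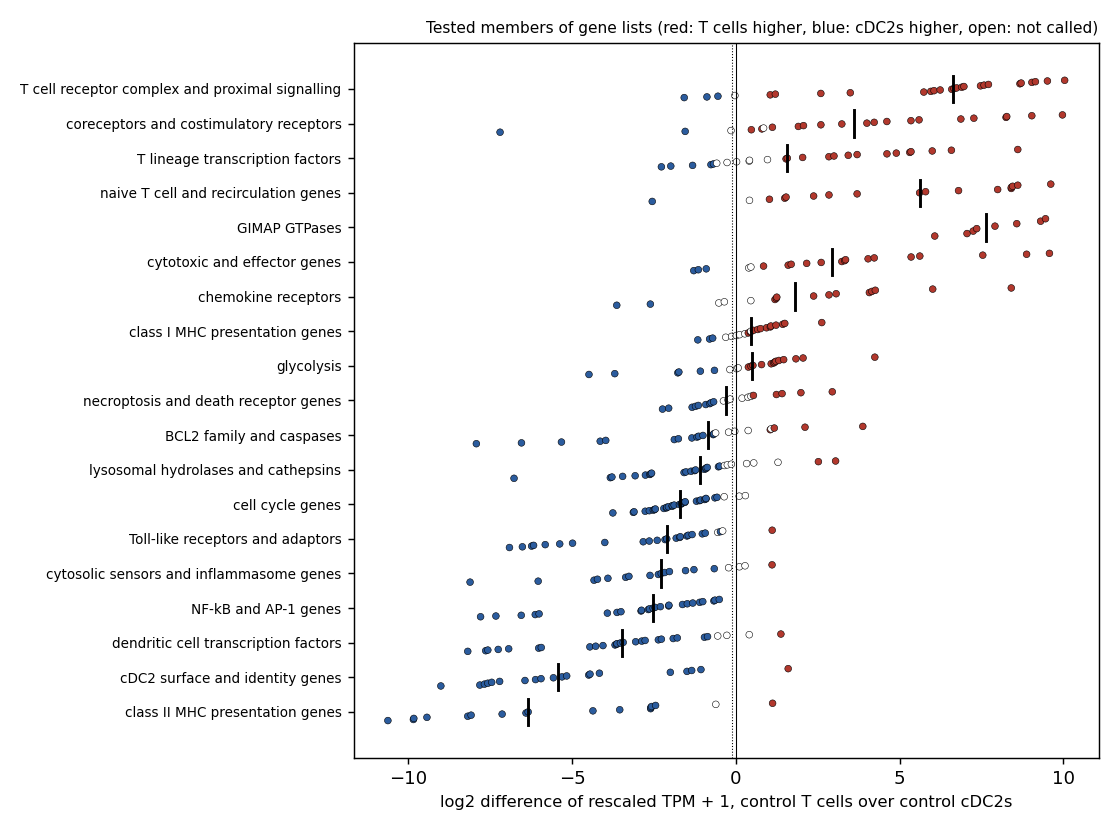
Log2 difference of each tested member of 19 gene lists, with positive values higher in control T cells and negative values higher in control cDC2s. Points are genes, red or blue where called higher in T cells or cDC2s and open where not called, thick bars are list medians with genes at 0 included, the dotted line is the median of all tested genes (-0.13), and the lists are ordered from T cell genes at the top to class II genes at the bottom.

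The same comparison was made in the 5 libraries of Cd47ΔT mice, which share no sample with the controls but share the difference in kit. Of 11427 genes tested there, 3355 were called higher in T cells and 3814 higher in cDC2s. Of the genes called higher in control T cells, 2349 were also called higher in Cd47ΔT T cells, 85.9% of the control list and 70.0% of the Cd47ΔT list. For cDC2s the overlap was 3221 genes, 82.8% and 84.5%, and 20 genes were called in opposite directions. Of the 2016 genes called at least 4-fold in controls and tested in both genotypes, 1935 were called in the same direction in Cd47ΔT mice. The difference between cell types itself differed between genotypes, by the interaction term of 1 limma fit, for 633 of 11010 genes tested in both. Cd47 was one of them: the log2 difference between T cells and cDC2s was 0.0069 in controls and -2.04 in Cd47ΔT mice (interaction adjusted p = 0.00179). Sirpa (-7.45 and -4.37, interaction adjusted p = 2.89e-04), Lck (9.51 and 8.48, 0.746) and Spi1 (-7.57 and -5.11, 0.00587) are given in the same order.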

How the data were processed

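Mouse spleen T cells (2 libraries) and cDC2s (3 libraries) of Cd47f/f mice, and as a further comparison 2 and 3 libraries of Cd47ΔT mice, were grouped by cell type and genotype in the labels. The table deposited by the authors holds TPM per Ensembl gene, each library summing to 1000000. The submitters' processing notes list STAR, RSEM and DESeq2, without versions, and GRCm38 as the genome build. TPM keep no depth, so counting error is unknown. No source used here states whether counting used strand, so overlapping antisense genes and near-identical copies are uncertain. GENCODE M21 matched 45143 identifiers (98.8%) and gave symbols, classes, positions and lengths. Mitochondrial, non-coding and antigen receptor segment genes were left out before rescaling. limma 3.58.1 in R 4.3.3 (lmFit, eBayes with a variance trend) was run on log2(level + 1) with cell type as the only term, over genes at 1 or more in both T cell or all 3 cDC2 libraries, with Benjamini-Hochberg adjustment over all of them. A count test was not used, since TPM are not counts.

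The members and gene lists were chosen with earlier results of these data known. Named genes were a fixed set of anchors, the 15 widest differences in each direction (called, without overlap, at a mean of at least 20 in the higher cell type), the widest called and highest uncalled members of each list, and receptor and ligand pairs. Of the 259 genes so named, 253 are described, and the 102 others in the text were chosen after their values were seen. A few results on single genes are not reported here. Lists are given as counts and medians, with no set test. Alternatives were pseudocounts of 0.1 and 5, no filter or a filter of 5, other scalings, other variance trends, a joint fit with the Cd47ΔT libraries, a block for the replicate number and leaving out each library. Motif letters were searched on both strands of RefSeq promoters (GRCm38.p6, 250 bases before to 50 after the start), which matched 8873 of 11164 tested genes. In 20 simulated draws with 200 changed genes each, 2.74% of the calls fell on genes left unchanged. Far more genes were called in the real comparison, so this share does not carry over to it. The other software was matplotlib 3.10.9, numpy 2.4.6, pandas 2.3.3 and Python 3.11.15.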

Additional observations from a re-analysis of the deposited data

Results flagged for a closer look

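The difference between T cells and cDC2s was compared between Cd47f/f and Cd47ΔT mice for each gene named above, as an interaction term in 1 limma fit of all 10 libraries. Of the named genes, of which 337 were tested in controls, 101 differed at an adjusted p under 0.05, with adjusted p from 1.21e-04 to 0.0484. Of all 11010 genes tested in both genotypes, 633 differed. Many named genes were chosen for wide differences between the cell types or after their values were seen, so the 2 counts do not compare like sets. Each value here is the log2 difference in Cd47ΔT minus that in controls, so that a positive value means that T cells stood higher relative to cDC2s in Cd47ΔT mice, and for genes at 0 throughout a group it depends on the 1 added. Cd47, the targeted gene, had a value of -2.05 (adjusted p = 0.00179), from 0.0069 to -2.04. Among T cell genes and factors, the values were -1.94 for Tcf7, -1.93 for Il7r, -1.1 for Ccr7, -4.06 for Ly6c1, -1.52 for Trat1, -1.73 for Cd40lg, -0.74 for Ltb, 2.56 for Tigit, 2.4 for Pdcd1, 1.53 for Ctla4, 1.85 for Foxp3, 1.1 for Tnfsf8 and 1.01 for Lgals9. Among cytotoxic and effector genes, the values were 1.05 for Nkg7, 1.54 for Gzmb, 1.21 for Ly6c2, 1.17 for Ccl5, 0.71 for Cd7 and 1.2 for Xcl1. Among class II genes, the values were 3.47 for Cd74, 3.55 for H2-Ab1, 3.38 for H2-Aa, 3.31 for H2-Eb1, 1.35 for Ciita, 0.89 for H2-Oa, 0.79 for H2-DMa and 1.89 for H2-DMb2. Among dendritic cell factors and surface genes, the values were 1.53 for Flt3, 1.33 for Irf4, 1.7 for Irf8, 2.45 for Spi1, 1.93 for Klf4, 1.65 for Batf3, 1.98 for Itgax, 3.87 for Cd209a, 2.05 for Clec9a, 2.44 for Wdfy4 and 2.1 for Hes1. Among SIRP genes and their adaptor, the values were 3.08 for Sirpa, 1.61 for Sirpb1a, 2.18 for Sirpb1b, 2.57 for Sirpb1c and 0.86 for Skap2. Among ITAM and inhibitory receptor genes, the values were 2.65 for Syk, 3.16 for Fcer1g, 3.33 for Tyrobp, 2.35 for Pirb, 2.01 for Cd300lf, 2.41 for Fcgr2b and 2.03 for Havcr2. Among microbial sensors and their partners, the values were 1.32 for Tlr9, 1.65 for Tlr13, 2.24 for Unc93b1, 3.06 for Ly86, 2.11 for Cd180, 1.52 for Nlrp3, 3.53 for Il1b, 3.55 for Ifitm3 and 1.93 for Oasl2. Among ligands, chemokines and receptors, the values were 1.75 for Cd40, 1.01 for Icosl, 1.55 for Alcam, 1.85 for Cd83, 1.17 for Ltbr, 1.47 for Il10ra, 1.75 for Cx3cr1, 3.11 for Ccl6, 3.1 for Ccl3 and 3.2 for Itgam. Among the remaining named genes, the values were 2.64 for Adgre1, 2.53 for C1qa, 4.26 for Jchain, 2.95 for Csf1r, 1.08 for Bcl2a1d, 1.34 for Bcl2a1a, 1.33 for Pmaip1, 2.63 for Ctsh, 0.55 for Ctsz, 1.62 for Grn, 1.69 for Mki67, 1.97 for Top2a, 1.8 for Ube2c, 2.97 for Cybb, 2.82 for Alox5ap, 2.55 for Entpd1, 2.68 for Apoe, 2.04 for P2ry6, 2.52 for Trpm2, -2.01 for Aldh1a2, 1.22 for Dhrs3, 1.29 for Cbfa2t3, 2.81 for Clec4a1, 2.39 for Clec4a2, 0.97 for Ncf1, 1.89 for Bub1b, 1.54 for Tpx2, 2.12 for Fcgr3, 2.1 for Pdcd1lg2, 0.93 for Tnfrsf1b and 3.02 for Tnfsf14. Genes of myeloid and antibody-secreting cells were read in the T cell libraries of both genotypes. The T cell mean of Cd74 was 32.5 in controls and 331 in Cd47ΔT mice. The T cell mean of Csf1r was 3.89 in controls and 32.1 in Cd47ΔT mice. The T cell mean of C1qa was 4.42 in controls and 39.5 in Cd47ΔT mice. The T cell mean of Jchain was 71.9 in controls and 378 in Cd47ΔT mice. The part of other cells in these values was not tested.

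Immunoglobulin genes, which no comparison used, took 0.254% and 0.289% of the deposited TPM in control T cell libraries 1 and 2, above the cDC2 libraries (0.0265% to 0.0329%). Small non-coding RNAs, also outside the comparisons, took 17.7%, 21.3% and 16.1% in control cDC2 libraries 1, 2 and 3, above both T cell libraries. Kit and cell type cannot be told apart for these shares.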

How the results depend on the processing

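Under the 18 alternatives, of which removing the length trend was chosen after seeing the data, the genes called higher in T cells numbered 1610 to 2658 when 1 library was left out and those higher in cDC2s 2576 to 3962, and every other alternative kept each count within 1.5 times that reported, as did the 3 alternatives for Cd47ΔT mice. A lone T cell library was taken to vary as the cDC2 group does. A block for the replicate number gave 2681 and 3940. Under this block Klf2, Bbc3, Vsir and Tnfrsf4, not called in the main fit, were called higher in T cells. Likewise Tbx21, Rfxap, Ptpn11, Cflar, Dock2 and Tnfrsf14 were called higher in cDC2s. Whether the replicate numbers pair the samples is not known. The deviations from the group means correlated at r = -0.038 across genes between the libraries numbered 1 and at 0.0024 between those numbered 2. With 2 T cell libraries the T cell deviations mirror each other, so these values cannot tell whether the samples were paired. Of 282 named genes that were called, 253 kept the call under every alternative, 29 lost it under at least 1, and none changed direction. Many of these called genes were chosen for wide differences or after their values were seen, so such counts do not describe all tested genes. Of 55 named genes not called, 31 changed sign under some alternative, for causes that were not tested beyond the change in scaling or samples itself. The log2 differences were then for Cd47 -0.19 (length trend removed), -0.36 to 0.38 (leaving out 1 library), and for Ptpn22 0.24 (deposited TPM), 0.33 (quantile), 0.20 (median-of-ratios), 0.27 (total without ribosomal protein and histone genes), 0.056 (length trend removed), -0.11 to 0.058 (leaving out 1 library). They were for Cd4 0.12 (deposited TPM), 0.22 (quantile), 0.084 (median-of-ratios), 0.15 (total without ribosomal protein and histone genes), and for Zbtb7b -0.052 (replicate block), -0.10 to 0.17 (leaving out 1 library). They were for Irf8 0.0033 (quantile), 0.00055 (total without ribosomal protein and histone genes), and for Tmem173 -0.070 (length trend removed). They were for Bcl2l1 0.21 (deposited TPM), 0.22 (quantile), 0.18 (median-of-ratios), 0.25 (total without ribosomal protein and histone genes), -0.35 to 0.39 (leaving out 1 library), and for Tap1 0.14 (deposited TPM), 0.23 (quantile), 0.10 (median-of-ratios), 0.17 (total without ribosomal protein and histone genes). They were for Psmb8 -0.068 (replicate block), -0.22 (length trend removed), -0.068 to 0.084 (leaving out 1 library), and for Gapdh 0.084 (deposited TPM), 0.12 (quantile), 0.050 (median-of-ratios), 0.12 (total without ribosomal protein and histone genes). They were for Itpr3 0.10 (length trend removed), and for Trpv2 0.14 (deposited TPM), 0.19 (quantile), 0.11 (median-of-ratios), 0.18 (total without ribosomal protein and histone genes), -0.25 to 0.050 (leaving out 1 library). They were for Rara -0.029 to 0.23 (leaving out 1 library), and for Il6ra 0.097 (deposited TPM), 0.20 (quantile), 0.063 (median-of-ratios), 0.13 (total without ribosomal protein and histone genes), 0.34 (length trend removed), -0.49 to 0.16 (leaving out 1 library). They were for Klrk1 -0.27 to 1.06 (leaving out 1 library), and for Traf6 0.11 (length trend removed). They were for Ddx58 0.042 (deposited TPM), 0.12 (quantile), 0.0085 (median-of-ratios), 0.075 (total without ribosomal protein and histone genes), -0.50 to 0.062 (leaving out 1 library), and for Lamp1 0.0047 (deposited TPM), 0.12 (quantile), 0.038 (total without ribosomal protein and histone genes). They were for Lipa 0.0034 (quantile), and for Tapbp 0.068 (quantile). They were for Casp6 0.036 (deposited TPM), 0.050 (quantile), 0.0041 (median-of-ratios), 0.070 (total without ribosomal protein and histone genes), and for Ptk2b 0.13 (deposited TPM), 0.23 (quantile), 0.093 (median-of-ratios), 0.16 (total without ribosomal protein and histone genes), 0.14 (length trend removed), -0.28 to 0.015 (leaving out 1 library). They were for Adam10 -0.11 to 0.35 (leaving out 1 library), and for Maml1 0.082 (deposited TPM), 0.085 (quantile), 0.050 (median-of-ratios), 0.12 (total without ribosomal protein and histone genes), 0.28 (length trend removed), -0.40 to 0.054 (leaving out 1 library). They were for Itgb1 0.0059 (quantile), and for Rac1 0.17 (deposited TPM), 0.32 (quantile), 0.13 (median-of-ratios), 0.20 (total without ribosomal protein and histone genes), 0.061 (length trend removed), -0.22 to 0.032 (leaving out 1 library). They were for Dock2 0.018 (quantile), and for Gpi1 -0.24 (length trend removed). They were for Tnfsf14 -0.021 (replicate block), -0.051 (length trend removed), -0.18 to 0.26 (leaving out 1 library), and for Tnfrsf14 -0.73 to 0.018 (leaving out 1 library). They were for Tnfsf9 0.26 (quantile). Levels rest on 2 and 3 libraries without known depth, so low genes cannot be told from 0, and a value at 0 is only listed at 0. In simulated data with 200 of 11164 genes changed and all others equal, the test recovered 22.1% of those given a log2 change of 1. It recovered 75% of those given 2. In the comparison itself 59.4% of genes were called, so its cutoff after adjustment was looser and these shares do not measure its power. A gene without a call may still differ.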
